A study of Mus musculus with 2 samples.

Results

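Fetal liver cells carrying little Ter119 and CD71 antibody, much cKit antibody and at least 3 Plac8 UMIs were examined, 133 of the 7863 deposited cells. A UMI is a molecular identifier that counts 1 captured transcript. The cells came from livers of C57BL/6 mouse embryos at e13.5, pooled from 7 livers and dissociated, with no genetic change or treatment. Ter119+ cells were depleted with magnetic beads and then returned to the Ter119- cells in equal number. The share of each stage was thus set in part by this mixing. Transcripts and 10 barcoded antibodies were counted in the same cells by CITE-seq, a form of single-cell RNA-seq in which each antibody carries a DNA tag. There was 1 cDNA library and 1 antibody library, and all 7863 barcodes were present in both. With 1 library there were no replicates, so no p-value is given, and every interval is an exact 95% interval that covers counting error only.

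Members had 300 to 5000 detected genes, at most 9% mitochondrial UMIs, a Ter119 count of at most 24, a low CD71 count (median 24, highest 223) and a cKit count of at least 200. Cells with 5 or more UMIs of the platelet gene Pf4, or with 10 or more UMIs summed over the neutrophil granule genes Mpo, Elane, Prtn3 and Ctsg, were set aside. Of 7355 cells within the quality limits, 1154 lay in the antibody gate, and the members were 11.5% of these (exact 95% interval 9.74 to 13.51). The same gate held 778 Plac8-low cells with at most 2 Plac8 UMIs, 221 granule-gene cells and 22 Pf4-expressing cells. The next stage of erythroid differentiation was represented by 575 cKit-high S0-medium cells, which met the same Ter119, Pf4 and granule limits at higher CD71 (median 404). Median depth was 6970 UMIs per member (range 2523 to 14608), 8123 per Plac8-low cell, 9023 per granule-gene cell and 13397 per S0-medium cell. Scrublet, a doublet caller, marked 0 of 133 members and 128 of all 7863 cells (1.63%), and an undetected doublet is still possible.

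Blood formation in the fetal liver runs from stem cells through multipotent and committed progenitors. The receptor cKit is carried by most of these progenitors, Cd34 encodes a surface sialomucin of early stages, and the transferrin receptor CD71 becomes abundant on the surface as cells commit to making red cells. Plac8 encodes a small cysteine-rich protein found in early myeloid and lymphoid progenitors. The transcription factors Gata1 and Klf1 drive the red cell programme, whereas Spi1, also called PU.1, and Irf8 act in myeloid and lymphoid cells.

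The antibody tags read by sequencing are shown because they define the gate and the independent surface readouts. The antibodies to Ter119, CD71 and cKit chose the cells, and those to CD11b, CD41 and CD44 did not. Each is 5′ to 3′ with no part capitalised.
Ter119: gaggcgattgat
CD71: cgaagaaggagt
cKit: aagcgcttggca
CD11b: catgattggctc
CD41: tgtccggcaata
CD44: gtctagacttcg

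The Plac8 gene lies on chromosome 5 (100551589 to 100572253 of GRCm38.p6), Kit on chromosome 5 (75574987 to 75656722) and Cd34 on chromosome 1 (194938821 to 194961292). The level of Plac8 chose the members and is given only as a description. A member held 3 to 49 Plac8 UMIs, with a median of 7 and quartiles of 5 and 13. Granule-gene cells, which the rule excluded, had a median of 18. Of the markers named in the label, Cd34 was at 322 CPM in members (the gene's UMIs pooled over the cells of a group and scaled to a common total), 33.3 CPM in Plac8-low cells and 2.35 CPM in S0-medium cells. The Cd34 ratio of members over Plac8-low cells was 9.67 (8.13 to 11.5). The Kit transcript stood at 71.2 CPM in members and 74.9 CPM in Plac8-low cells, a ratio of 0.95 (0.73 to 1.23), an interval that includes 1. With both groups held to a CD71 count of at most 40, the Cd34 ratio was 2.40 (1.99 to 2.90). A Cd34 UMI was found in 67.7% of members (59.0 to 75.5) and in 12.7% of Plac8-low cells (10.5 to 15.3). In Ter119-high erythroblasts, which should lack the gene, 2.84% had one, at a median of 4343 UMIs per cell. After each cell was thinned to 2500 UMIs these shares were 45.9%, 8.48% and 1.19%.

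Just outside and just inside the Plac8 limit, the 38 cells with 2 UMIs had 187 CPM of Cd34 and 224 CPM of Klf1, and the 14 cells with 3 UMIs had 364 CPM of Cd34 and no Klf1 UMI. Gata1 was at 102 CPM in the former and 28.0 CPM in the latter, and Spi1 at 112 and 280 CPM. Above the limit, Cd34 did not climb with Plac8. It was at 402 CPM (336 to 476) in the 49 cells with 3 to 5 Plac8 UMIs, 279 CPM (217 to 352) in the 39 cells with 6 to 10 and 278 CPM (226 to 338) in the 45 cells with more. Ifitm1, an interferon-inducible membrane protein, did, from 120 CPM (85.6 to 163) to 279 CPM (217 to 352) and 981 CPM (881 to 1090).

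**Figure D1:**
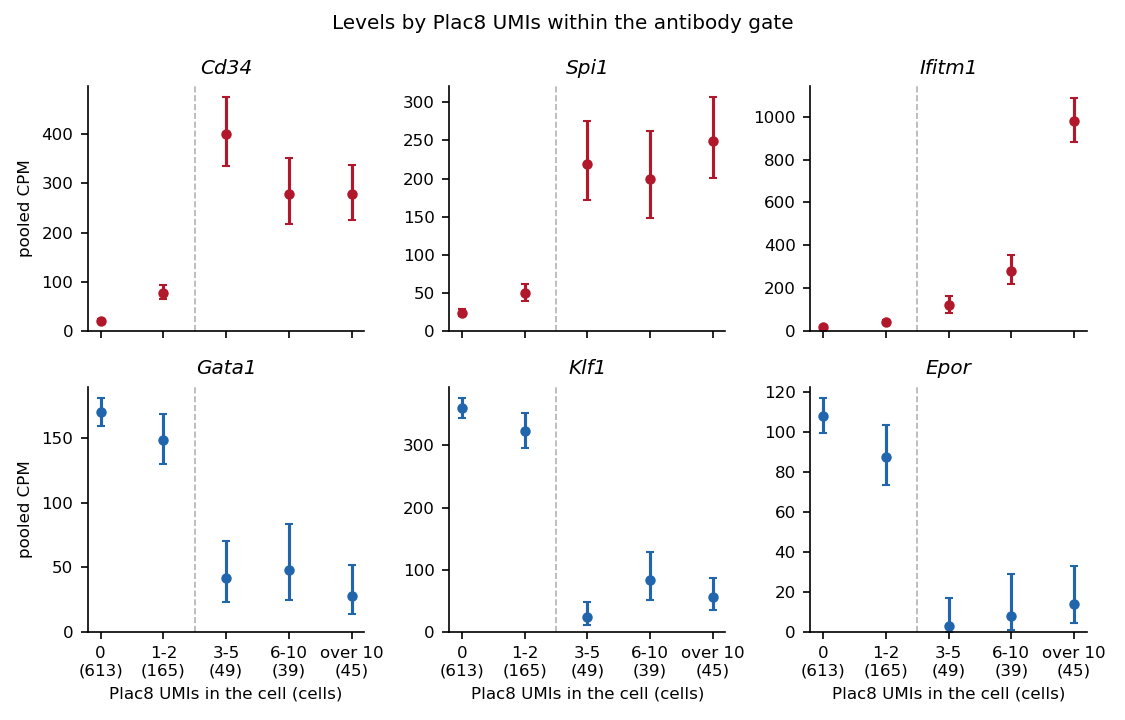
Pooled CPM of 6 genes in gate cells within the Pf4 and granule limits, by Plac8 UMIs in the cell (number of cells in parentheses). Points are pooled levels, bars are exact 95% Poisson intervals, and the dashed line marks the limit of 3 UMIs. Klf1 stood at 360 CPM in the 613 cells without Plac8 and at 23.97 CPM in the 49 cells with 3 to 5 UMIs.

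Compared with Plac8-low cells, the members had higher levels of genes of stem cells, lymphoid and myeloid progenitors, and lower levels of genes of early erythroid cells. Most of the stem cell calls ended when both groups were held to low CD71, a limit chosen after the data were seen. A gene counts as called when its pooled CPM differed at least 2-fold, among genes with at least 50 UMIs over both groups. Of 8156 genes, 648 were called higher in members (7.95%) and 662 lower (8.12%), and the median ratio of all genes was 0.95. On the scale of UMIs per cell, where the shallower members weigh less, the split was 404 higher and 1429 lower and the median ratio was 0.74. The interval left out a ratio of 1 for 642 of the 648 and 553 of the 662. These shares are the background for the counts of list members that follow. The gene lists were chosen with earlier results of these data known, so no count is independent evidence of its direction. A gene of few UMIs that passed the filter through only the group where it was high had to differ, so the counts and medians over genes that passed describe these cells and support no more.

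The stem and multipotent progenitor list had 30 genes, 22 of which passed the filter. Of these, 16 were called higher and 1 lower, with a median ratio of 4.23. With CPM averaged over cells rather than pooled, 15 were called higher and 1 lower, at 2.76, against 7.17% of all genes called higher. With all cells thinned to 2500 UMIs before the rule was applied, 8 of 19 were called higher at a median ratio of 1.598. The fixed UMI limits then gave 152 members, 895 Plac8-low cells and 93 granule-gene cells, so the cells compared were not the same. With the first members and Plac8-low cells matched on total UMIs, 12 of 18 were called higher at 3.24. The shares over all genes called higher in these settings were 4.37% of 5611 and 5.79% of 4730. With both groups held to a CD71 count of at most 40, 4 of 21 were called higher, at 1.35, against 1.71% of 5278 genes. H2afy, encoding the histone variant macroH2A1, was at 1768 CPM in members and 376 CPM in Plac8-low cells, a ratio of 4.71 (4.42 to 5.01). Sox4, a transcription factor of early progenitors, had a ratio of 5.96 (5.11 to 6.94) and the fetal chromatin protein gene Hmga2 one of 7.12 (6.05 to 8.37). Ifitm1 had the highest ratio of the list, 21.2 (17.7 to 25.6), with a UMI in 50.4% of members (41.6 to 59.2) and 10.3% of Plac8-low cells (8.24 to 12.6). Of its 460 UMIs in members, 344 came from 37 cells of 1 cluster, called cluster 5 in the account of the clusters, at 1401 CPM, against 108 CPM in the 80 members of cluster 2. Hoxa7, Hoxa9 and Cd27 had ratios of 8.47, 4.25 and 8.78. The exception was Mllt3, a chromatin reader of stem cells, which was at 19.1 CPM in members and 83.4 CPM in Plac8-low cells, a ratio of 0.23 (0.13 to 0.37).

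Of 23 lymphoid priming genes, 10 passed the filter, 9 of these were called higher and 0 lower, and the median ratio was 10.8. Some passed mainly through the members, such as Flt3 with 43 UMIs there and 18 in Plac8-low cells, so the median is a description and is not compared with that of other lists. After thinning before the rule, which changed the groups, 6 of 7 were called higher at a median ratio of 4.82. With matched depth it was 6 of 7 at 4.87. In these settings 4.37% and 5.79% of all genes were called higher. With CPM averaged over cells rather than pooled, 8 of 10 were called higher at 7.07, against 7.17% of all genes. Lsp1, a leukocyte actin-binding protein, was at 320 CPM in members and 12.8 CPM in Plac8-low cells, a ratio of 24.9 (19.6 to 31.8). The ratio of Flt3, the receptor tyrosine kinase of lymphoid-primed progenitors, was 18.0 (10.2 to 33.1), and a UMI was seen in 20.3% of members (13.8 to 28.1) against 1.93% of Plac8-low cells (1.08 to 3.16) and 0.672% of Ter119-high cells. Notch1 and the chromatin organiser Satb1 had ratios of 13.9 (7.72 to 25.7) and 11.7 (7.996 to 17.2). Ikzf1, encoding the factor Ikaros, was the gene of this list that was not called, at a ratio of 1.22. Dntt, which adds nucleotides during antigen receptor assembly, and Ikzf3 had no UMI in the members.

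Myeloid genes were called higher in 8 of 11 cases of the granulocyte-monocyte progenitor list, with a median ratio of 6.67, a description like the others since Irf8 and Fcgr3 passed the filter only through the members. After thinning before the rule, which left 93 rather than 221 granule-gene cells set aside, 9 of 11 were called higher at a median ratio of 4.00. With matched depth it was 8 of 11 at 5.31. In these settings 4.37% and 5.79% of all genes were called higher. Spi1 was at 225 CPM in members and 29.5 CPM in Plac8-low cells, a ratio of 7.64 (6.28 to 9.29), and Irf8 had a ratio of 28.4 (16.7 to 50.8). Of the 68 Irf8 UMIs of the members, 46 came from the 13 cells of cluster 6. Tyrobp, Fcer1g and Fcgr3, which encode adaptors and a receptor of immune signalling, had ratios of 13.498, 6.67 and 20.8. The 2 genes called lower were the neutrophil calcium-binding proteins S100a8 and S100a9, at 0.32 (0.14 to 0.61) and 0.47 (0.26 to 0.81). Of 4 mast cell and basophil genes, Cpa3, Lmo4 and Srgn were called higher. Cpa3, a mast cell carboxypeptidase, had a ratio of 17.6 (11.8 to 26.7). The 37 cells of cluster 5 held 66 of its 84 UMIs in members and 65 of the 83 of Fcgr3.

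Among the 15 genes with the highest ratios, Mzb1, a chaperone gene of antibody-secreting and plasmacytoid dendritic cells, led with 82 UMIs in members and 8 in Plac8-low cells, a ratio of 77.2 (37.4 to 185). A Mzb1 UMI occurred in 22 members, 16.5% (10.7 to 23.97), and in 0.514% of Plac8-low cells and 0.207% of Ter119-high cells. Others were Gpr171 (22.6), Bfsp2 (20.6), Id2 (20.4), Csf2rb (19.9), Ccl9 (18.7), Emb (18.3), Cd53 (17.5) and Unc93b1 (16.8), where the number is the ratio of pooled CPM. Csf2rb has a near-identical neighbouring copy, so its value is uncertain.

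Early erythroid genes ran the other way. All 30 genes of the list passed the filter, 21 were called lower and 1 higher, and the median ratio was 0.22. Klf1 was at 52.1 CPM in members and 352 CPM in Plac8-low cells, a ratio of 0.15 (0.11 to 0.20), and Gata1 at 38.2 and 166 CPM, a ratio of 0.23 (0.16 to 0.32). Epor, the erythropoietin receptor gene, had 8 UMIs in all members, 8.50 CPM, against 103 CPM in Plac8-low cells, a ratio of 0.08 (0.04 to 0.16). Ermap, an erythroid membrane protein, stood at 11.7 CPM against 153 CPM, also a ratio of 0.08 (0.04 to 0.14). The carbonic anhydrase genes Car1 and Car2 had ratios of 0.17 and 0.32, and Blvrb and Mt1, for biliverdin reductase and a metallothionein, had ratios of 0.17 and 0.19. Fewer cells with the transcript and fewer transcripts per cell both enter a pooled level. A Klf1 UMI was found in 20.3% of members (13.8 to 28.1) and 73.5% of Plac8-low cells (70.3 to 76.6), and in 15.97% of hepatocyte cells (10.4 to 22.996), which held at least 5% of their UMIs in the hepatocyte list and should lack the gene, at a median of 12778 UMIs. The Gata1 share was 17.3% in members (11.3 to 24.8) against 7.64% in hepatocyte cells (3.87 to 13.3), and the Epor share was 5.26% against 5.56%. After thinning, the Klf1 share was 14.3% in members (8.83 to 21.4) and 3.47% in hepatocyte cells (1.14 to 7.92), and the Gata1 share was 7.52% and 1.39%. The Epor share after thinning was 0.752% and 0%. Before thinning, at unlike depth, the intervals of the members and the hepatocyte cells overlapped for each of these genes. After thinning those of Klf1 did not overlap. Cnrip1 was the gene called higher, at 3.64 (2.25 to 5.76), and Apoe, Slc4a1 and Nfe2 had ratios near 1, of 1.04, 1.03 and 1.03.

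The 15 genes with the lowest ratios had no UMI in any member and so passed the filter through the Plac8-low cells alone. Podxl, encoding the sialomucin podocalyxin, had 208 UMIs in Plac8-low cells and was at least 9.21-fold lower in members, taking 3 UMIs over the group as the floor. By the same floor the potassium channel gene Kcng2 was at least 6.46-fold lower, the transcription factor gene Klf9 at least 6.42-fold lower and Ces2g at least 5.27-fold lower. The collagen chaperone gene Serpinh1, Gp5, a platelet glycoprotein, and Fabp4, a fatty acid carrier, were at least 3.14-fold, 2.97-fold and 2.70-fold lower. The others were Cachd1, C2cd4a, Lpin1, Slc22a23, Slc12a2, Acmsd, 9430020K01Rik and Plxna1. Serpinh1 and Fabp4 were among the leading genes of cluster 2, which held 80 members and 94 Plac8-low cells.

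Lists of other programmes were counted in the same way. In the progenitor transcription factor list, 9 of 22 were called higher, among them Gata2 (ratio 3.94), Runx1 (3.15) and Ikzf2 (5.38), and 3 were called lower, Gfi1b (0.34), Tal1 (0.32) and Zfpm1 (0.18), a set of erythroid and megakaryocyte regulators. After thinning before the rule, which changed the groups, 5 of 21 were called higher and 5 lower, against 4.37% and 8.11% of all genes. Of the 153 Gata2 UMIs of the members, 121 came from the 37 cells of cluster 5. Myb, required for blood progenitors, had a ratio of 1.02 (0.86 to 1.21). The megakaryocyte list had 1 of 12 called higher, Mef2c, and 3 lower, Gp5, Treml1 and F2r, with Itga2b, the CD41 gene, at 0.79 (0.42 to 1.37). Of 16 adhesion and migration genes, 6 were called higher and 0 lower, with Coro1a, an actin regulator of leukocytes, at 599 CPM against 68.7 CPM. Of 14 cytokine receptor and signalling genes, 5 were called higher and Socs2 lower. With both groups at a CD71 count of at most 40, 9 genes of this list passed the filter and 0 were called in either direction. Of 14 adhesion and migration genes, 3 were called higher and 0 lower under that limit. Over all genes 1.71% were called higher and 2.18% lower there. In the antigen presentation list 3 of 7 were called higher, with B2m at a ratio of 3.002, and in the fetal programme list 2 of 7, with the imprinted gene Mest lower at 0.10 (0.02 to 0.30). Under the CD71 limit 0 of 4 antigen presentation genes and 0 of 5 fetal programme genes were called in either direction. Of 9 cell cycle inhibitors and D cyclins, Ccnd1, Btg1 and Btg2 were called higher and Cdkn2c lower, and under the CD71 limit 0 of 7 were called in either direction. No gene of 20 in the S phase list or of 20 in the G2 and mitosis list was called, with median ratios of 1.03 and 0.84, and Top2a, the replication and mitosis topoisomerase, was at 297 CPM against 259 CPM.

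Markers of cells that a liver also contains were measured beside these. The hepatocyte list was called higher in 8 of 9 genes, and 596 of the 851 hepatocyte-list UMIs of the members came from 1 cell, in which they made up 9.97% of all UMIs. The median cell had 0.0249% in members and 0.0231% in Plac8-low cells. With cells over 1% left out, 1 from each group, 0 of 8 hepatocyte genes were called higher, 1 was called lower and Alb had a ratio of 0.80. The summed list stood at 904 CPM in members, 331 CPM in Plac8-low cells and 291 CPM in granule-gene cells, with Afp the most abundant gene and none of the 10 at 0. The macrophage list summed to 10.6 CPM in members and 38.5 CPM in Plac8-low cells, with C1qa, C1qb, Vcam1, Cd5l, Mrc1 and Marco at 0, Hmox1 the most abundant gene, and the iron exporter gene Slc40a1, the gene that passed the filter, at 0.05 (0.0012 to 0.28). The endothelial list summed to 347 and 215 CPM, led by Egfl7, with 1 of 3 called, Pecam1, and Cdh5, Kdr, Lyve1 and Stab2 at 0. The stellate and mesenchymal list summed to 92.4 and 52.2 CPM, led by Dlk1, the 1 gene that passed the filter, at a ratio of 2.06 and at 1.66 without cells over 1% hepatocyte share, and Col1a2, Col3a1, Des, Pdgfra and Dcn were at 0.

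**Figure D2:**
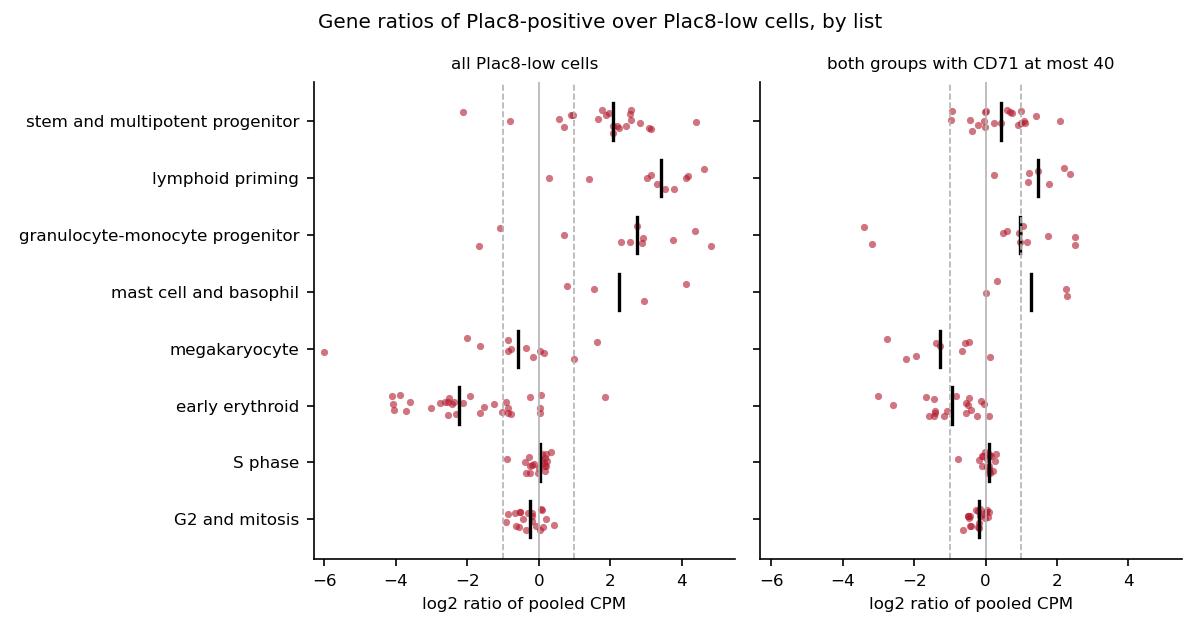
Log2 ratio of pooled CPM, members over Plac8-low cells, for each gene of 8 lists that passed the filter (points) and the list median (black bars), over all Plac8-low cells on the left and with both groups held to a CD71 count of at most 40 on the right. Dashed lines mark 2-fold, and Gp5, at 0 in members, is drawn at the left edge of its panel. Early erythroid genes sit at a median ratio of 0.22 on the left and 0.52 on the right.

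Most Plac8-low cells of the gate carried more CD71 than the members did. The CD71 antibody, whose upper limit is part of the gate, had a median of 24 in members and 83 in Plac8-low cells. Shares were taken over the 911 members and Plac8-low cells together. Members were 29.7% (22.5 to 37.8) of those with a CD71 count of at most 20 and 32.9% (26.5 to 39.7) of those at 21 to 40. They were 9.49% (5.41 to 15.2) at 41 to 80 and 1.51% (0.555 to 3.25) above 80. In Plac8-low cells Cd34 went from 203 CPM (165 to 247) to 103, 8.64 and 4.43 CPM over these 4 ranges, and Klf1 from 99.6 to 176, 323 and 432 CPM. In members Cd34 was at 368, 304, 337 and 235 CPM and Klf1 at 44.4, 49.1, 49.4 and 141 CPM, the last from 6 cells with wide intervals. Pooled Cd34 of the members was above 200 CPM in each range, although the interval of the highest reached down to 113 CPM. In Plac8-low cells it was above 200 CPM in the lowest range only.

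**Figure D3:**
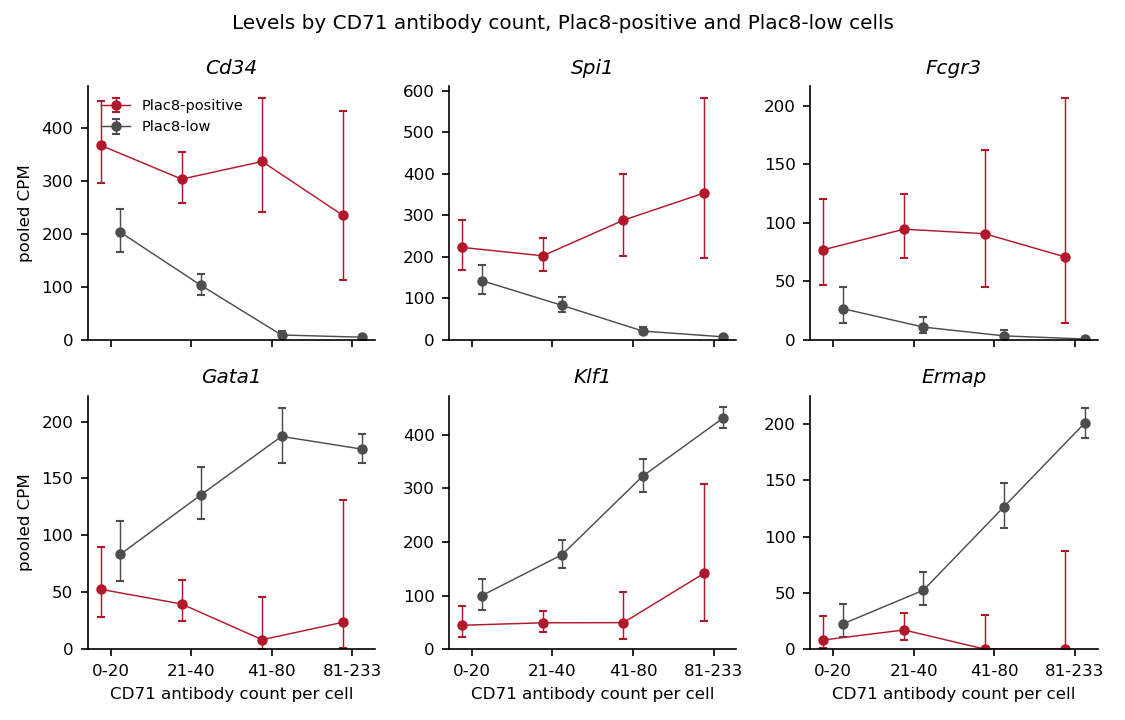
Pooled CPM of 6 genes in members (red) and Plac8-low cells (grey) by CD71 antibody count. Points are pooled levels with exact 95% Poisson intervals. Ermap in Plac8-low cells went from 22.4 CPM in the lowest range to 201 CPM in the highest, and in members it was at 8.08 CPM and 17.0 CPM in the lower ranges and at 0 in the others.

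When both groups were held to a CD71 count of at most 40, a limit chosen after the data were seen, 112 members and 243 Plac8-low cells remained and a smaller share of genes was called. Of 5278 genes, 90 were called higher (1.71%) and 115 lower (2.18%). The 90 included 84 of the 648 genes called higher over all Plac8-low cells (93.3% of the 90 and 13.0% of the 648), and the 115 included 75 of the 662 (65.2% and 11.3%). Only 410 of the 648 and 245 of the 662 passed the filter among these fewer cells, so the others were not measured there. The Cd34 ratio went from 9.67 to 2.40 and that of Spi1 from 7.64 to 2.05. Mzb1 led again, at 35.3 (11.5 to 177), followed by Id2 at 13.7 (7.04 to 29.9), Fcgr3 at 5.64 (3.498 to 9.38), Irf8 at 5.62 (3.06 to 10.9), Ccl9 at 5.44 (3.57 to 8.49), Lsp1 at 5.12 (3.92 to 6.75) and Cpa3 at 4.90 (3.17 to 7.76).

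The medians of the stem, lymphoid, myeloid and early erythroid lists came closer to 1 under this limit, while that of the megakaryocyte list went from 0.68 to 0.42. The stem and multipotent progenitor list went from 16 of 22 called higher to 4 of 21 (Ifitm1, Ly6e, Sox4 and H2afy), and its median ratio from 4.23 to 1.35. Lymphoid priming went from 9 of 10 called higher to 6 of 7 and from a median of 10.8 to 2.75. The granulocyte-monocyte progenitor list went from 8 of 11 to 5 of 11 and from 6.67 to 1.96. S100a8 and S100a9 were again lower, and further from 1 than over all Plac8-low cells. Outside the rule genes, the lowest ratios under the limit were Camp at 0.075, Ngp at 0.087, S100a8 at 0.095 and S100a9 at 0.11. The early erythroid list had 10 of 20 called lower, at a median of 0.52, with Epor at 0.17, Klf1 at 0.31 and Gata1 at 0.37. The megakaryocyte list had 0 of 9 called higher and 5 lower, among them Itga2b and F2r, and the progenitor transcription factors 0 of 21 higher and the same 3 lower, Gfi1b, Tal1 and Zfpm1. Fli1, called higher over all Plac8-low cells at 2.41, was at 0.87 here.

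Surface proteins that the rule did not use were compared next. The antibody to CD11b, the integrin of myeloid cells, had a median count of 30 in members (quartiles 17 and 58), 6 in Plac8-low cells (3 and 10) and 41 in granule-gene cells (21 and 71). The mean ratio of members over Plac8-low cells was 3.24 (3.14 to 3.34 by counting alone). The 95th percentile of Plac8-low cells was a count of 61, and 21.8% of members (15.1 to 29.8) lay above it. The ratio fell with the CD71 limit of 40, to 1.27, where the medians were 27 and 10. CD44, the hyaluronan receptor, had medians of 283, 232 and 400 in members, Plac8-low and granule-gene cells, a mean ratio of 1.19 over Plac8-low cells that moved to 1.09 at the CD71 limit. CD41, the platelet integrin, had medians of 10, 9 and 17, and its mean ratio of 1.52 was 1.30 without cells over a count of 100. Of the 3665 CD41 counts of the members, 1 cell held 1164 and the 37 cells of cluster 5 held 1483. The B cell and T cell antibodies CD45R and CD3e had medians of 12 and 7 in members and 11 and 6 in Plac8-low cells, and Ly6G/6C had 3 and 2. The IgG control had a mean of 0.0226 counts per member and 0.0296 per Plac8-low cell.

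**Figure D4:**
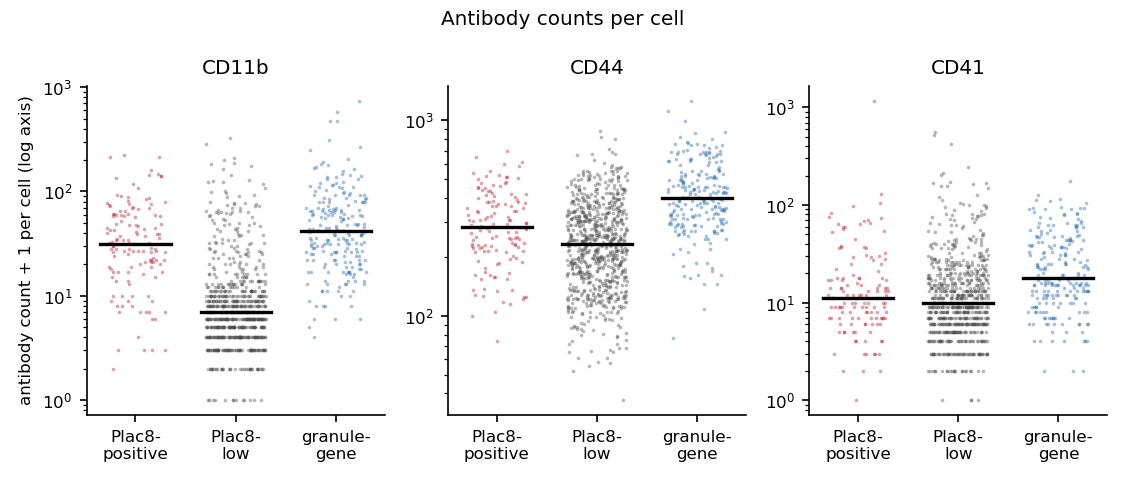
Antibody count plus 1 per cell on a log axis for CD11b, CD44 and CD41 in members (red), Plac8-low cells (grey) and granule-gene cells (blue). Each point is a cell and black bars are medians. The CD11b medians are 30, 6 and 41, and the groups overlap for every antibody shown.

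Granule-gene cells were compared next. Of 6005 genes, 110 were called higher in members (1.83%) and 152 lower (2.53%). Cd34 was at 310 CPM there, close to the 322 CPM of members. The granule limit of the rule split these groups, and the neutrophil genes that follow were high in the cells it set aside, so their direction is a description. Stfa1 and S100a8, proteins of maturing neutrophils, had ratios of 0.018 and 0.018, Cebpe, the granulocyte transcription factor, 0.026 and haptoglobin, Hp, 0.029. Cldn15 and Fcnb had no UMI in members and were at least 11.7-fold and 10.9-fold lower. The genes with the highest ratios were Mzb1 at 25.7 (11.9 to 66.0), Mycn, a growth factor-responsive transcription factor, at 12.6 (7.57 to 22.0), Bfsp2 at 9.01, Hoxa7 at 5.54, Tsc22d1 at 5.40 and Apoa1 at 5.34, and 66 of the 90 Apoa1 UMIs came from the cell of high hepatocyte share. The early erythroid list had 1 of 16 called higher, 1 lower and a median ratio of 1.02. Klf1 was at 52.1 CPM (38.5 to 68.8) in members and 24.7 CPM (18.4 to 32.4) in granule-gene cells. In the stem and multipotent progenitor list 9 of 21 were called higher and 0 lower, at a median ratio of 1.59. Of 10 lymphoid priming genes, 2 were called higher and 2 lower. Of 22 granulocyte-monocyte progenitor genes, 1 was called higher and 11 lower, at a median ratio of 0.50. Of 5 mast cell and basophil genes, 1 was called higher and 1 lower, at a median ratio of 0.69. That list summed to 1549 CPM in members and 1750 CPM in granule-gene cells. The granule genes themselves were limited by the rule and are not compared.

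Against S0-medium cells, 877 of 8003 genes were called higher in members (11.0%) and 935 lower (11.7%). The highest ratios were those of Cpa3, with 84 UMIs against 1, a ratio of 682 (119 to 27265), Gpr171 at 512, Gimap1 at 225, BC035044 at 213, Adgrg3 at 190 and Ifitm1 at 187 (120 to 309). Podxl, C2cd4a, Klf9, Lpin1, Ces2g and Cachd1 had no UMI in members, and Podxl was at least 14.3-fold lower. Of 29 early erythroid genes, 23 were called lower and 2 higher. S0-medium cells were deeper by median UMIs, 13397 against 6970, and on the scale of UMIs per cell 354 genes were called higher and 4016 lower.

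The members were not uniform. All cells of the gate were clustered on their transcripts with Plac8, Pf4 and the granule genes left out. Of the 8 clusters, cluster 2 held 80 members, cluster 5 held 37 and cluster 6 held 13, and the remaining 3 members lay in 3 other clusters. The largest share was 60.2% of members, and 88.0% lay in 2 clusters. None of these 3 clusters consisted of members alone, but at the finer resolution of 1.2 a cluster of 16 cells held 16 of the 133 members and no other cell. Cluster 2 also held 94 Plac8-low and 41 granule-gene cells, cluster 5 held 37 and 58, and cluster 6 held 1 and 84. The clusters are called by their numbers, and the genes that define them are a description.

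Members of cluster 2 carried Cd34 at 423 CPM, with a UMI in 85.0% of cells (75.3 to 92.0), and held 78 of the 82 Mzb1 UMIs and 40 of the 43 Flt3 UMIs of all members. Hoxa9 and Hlf, transcription factors of stem cells and multipotent progenitors, had 42 and 28 UMIs here and 2 and 0 in cluster 5. Il12a, a cytokine subunit gene, was at 175 CPM and Mycn at 168 CPM. Cluster 2 as a whole, with its Plac8-low and granule-gene cells, was also high in Fabp4 (93.7-fold), Mest (47.9-fold) and Serpinh1 (36.9-fold) over the rest of the gate. In members Fabp4 and Serpinh1 had no UMI and Mest was lower than in Plac8-low cells. In cluster 5 members, Cpa3 was at 269 CPM against 29.5 CPM in cluster 2, the histamine enzyme gene Hdc at 114 CPM against 0, Lmo4 at 1259 against 43.4 CPM and Gata2, a factor of stem, mast and early erythroid cells, at 493 against 45.1 CPM. Cd34 was at 93.7 CPM and Mzb1 and Flt3 had no UMI in 37 cells. Cluster 6 members had Irf8 at 471 CPM, with a UMI in 10 of 13, Csf1r in 12 of 13 and Ly86 in 10 of 13, genes of the monocyte and dendritic cell line.

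The antibodies, which did not enter the clustering, differed between these cells. CD11b had a median of 38 in cluster 2 (quartiles 26 and 61), 9 in cluster 5 (6 and 16) and 69 in cluster 6 (48 and 78). CD41 ran the other way, with medians of 8 in cluster 2, 35 in cluster 5 and 9 in cluster 6, and the highest CD41 count of any member, 1164, was in cluster 6. CD71 medians were 23.5, 23 and 40. Klf1 was found in 10.0% of cluster 2 members (4.42 to 18.8) and 43.2% of cluster 5 members (27.1 to 60.5), and Gata1 in 6 of 80 and 15 of 37. The early erythroid list as a whole was at 2294 CPM in cluster 2, 3760 CPM in cluster 5 and 2046 CPM in cluster 6, while Car2 ran the other way, at 449, 183 and 225 CPM.

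**Figure D5:**
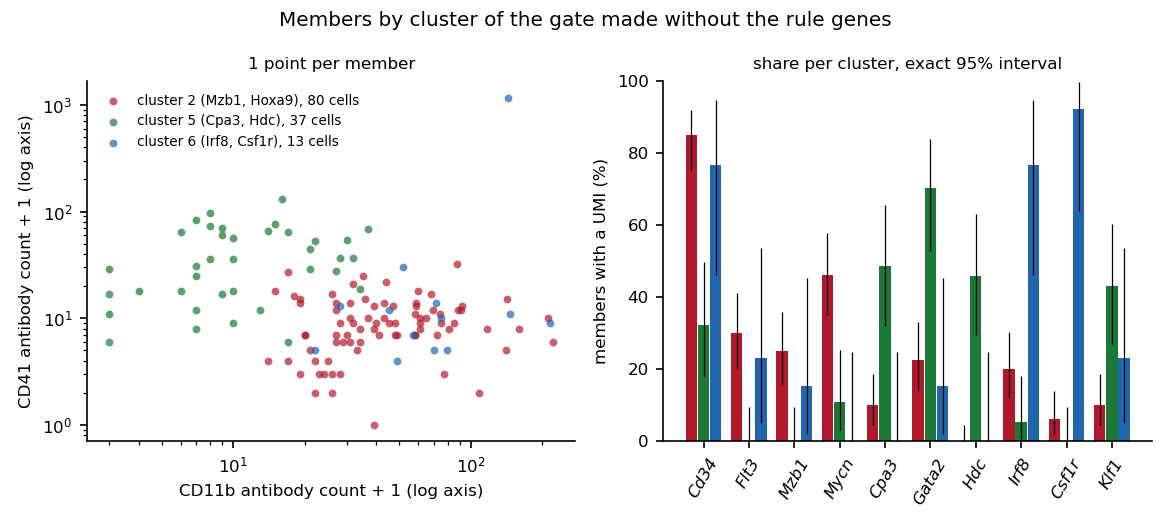
Left, CD11b against CD41 antibody count plus 1 on log axes, 1 point per member of clusters 2, 5 and 6. Right, percentage of those members with a UMI of 10 genes, with exact 95% intervals. Cluster 5 has medians of 9 for CD11b and 35 for CD41, and cluster 2 has 38 and 8.

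Members were also divided at their median CD11b count of 30, an antibody that took no part in the clustering, which left 66 with more and 67 with at most that. Of 2865 genes, 48 were called higher in the CD11b-rich members (1.68%) and 40 lower (1.40%). Lmo4 (0.075), Cpa3 (0.076), Gata2 (0.17), Gng12 (0.18) and Fcgr3 (0.22) had the lowest ratios, and Irf8 (6.29), Id3 (5.45) and H2-DMa (9.86), an antigen-loading gene, were among the highest. Ttr, Apoa1, Alb and Afp were also among the 8 highest, and the cell of high hepatocyte share was among them, with a CD11b count of 64. Median depth was 7694 UMIs in the CD11b-rich members and 5251 in the other, and the part of depth in these ratios was not tested.

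Erythroid and myeloid-lymphoid factor genes were also counted within the same cells. A UMI of Gata1, Klf1 or Epor was found in 31.6% of members (23.8 to 40.2), a UMI of Spi1, Irf8 or Flt3 in 74.4% (66.2 to 81.6) and both in 24.1% (17.1 to 32.2). In Plac8-low cells these shares were 84.1%, 20.7% and 12.5%. After thinning to 2500 UMIs, the shares were 20.3%, 48.9% and 9.02% in members and 66.1%, 10.8% and 3.73% in Plac8-low cells. As background, 27.8% of hepatocyte cells (20.6 to 35.8) had a UMI of Gata1, Klf1 or Epor, which is close to the share of members, and 4.86% (1.98 to 9.76) after thinning. A UMI of Spi1, Irf8 or Flt3 was in 6.61% of Ter119-high cells (5.55 to 7.82) and in 3.88% after thinning. The joint share of members is thus a description, and the part of free RNA in it was not tested.

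Since early erythroid genes were low together, the 250 bases before their start were searched in RefSeq windows of GRCm38.p6, the build of mm10. The letters AGATAA and TGATAA, on either strand, are those that GATA factors are known to bind. At least 1 match was in 5452 of 32851 windows of this length (16.6%), and in 8 of 31 windows of 23 early erythroid genes that had one (25.8%), namely those of Alas2, Epor, Ermap, Hemgn, Klf1, Rhd and Sphk1. Of the 15 genes with the highest ratios, 10 had a window and 1, Cpa3, held a match, and of the 15 lowest 9 had a window and 2, Ces2g and Gp5, held one. The letters GAGGAAGT, a form bound by PU.1, were in 802 of all windows (2.44%) and in none of these sets. A match is a description and not a site in use. The windows of Klf1 (chr8:84901732-84901981, plus strand) and Epor (chr9:21963577-21963826, minus strand) are shown as genes low in the members, and that of Cd34 (chr1:194938571-194938820, plus strand) as one that was high, 5′ to 3′ with each match in capitals.
Klf1: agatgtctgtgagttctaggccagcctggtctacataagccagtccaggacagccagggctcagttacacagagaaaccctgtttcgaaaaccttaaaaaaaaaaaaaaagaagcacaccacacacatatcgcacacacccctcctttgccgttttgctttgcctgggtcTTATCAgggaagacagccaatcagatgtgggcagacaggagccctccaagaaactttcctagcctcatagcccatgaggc
Epor: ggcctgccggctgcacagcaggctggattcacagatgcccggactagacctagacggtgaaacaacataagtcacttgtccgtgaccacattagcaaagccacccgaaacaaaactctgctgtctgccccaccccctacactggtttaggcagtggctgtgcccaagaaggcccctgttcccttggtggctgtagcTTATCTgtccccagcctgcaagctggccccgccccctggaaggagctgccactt
Cd34: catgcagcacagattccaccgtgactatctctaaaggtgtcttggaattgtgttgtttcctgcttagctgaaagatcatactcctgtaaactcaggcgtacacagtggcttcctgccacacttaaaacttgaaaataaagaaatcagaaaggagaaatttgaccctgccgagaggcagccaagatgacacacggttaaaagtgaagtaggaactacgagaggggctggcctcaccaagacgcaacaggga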

How the data were processed

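The authors processed the reads with Cell Ranger and Seurat against mm10, per the submitters' notes. The deposited cDNA matrix holds raw UMI counts per gene and cell, and the deposited antibody table holds counts per tag and cell, neither normalized. The 2 were joined by cell barcode in Python 3.11.15. Members and comparison cells were taken by the limits given in the report, with CD71 at most 233 for the gate and 234 to 763 for S0-medium cells. Ter119-high cells had a Ter119 count of at least 89 and hepatocyte cells at least 5% of UMIs in the hepatocyte list. The members and the 19 gene lists were chosen with earlier results of these data known. Pooled CPM was compared as a ratio, with an interval from the exact binomial share of UMIs, and genes at 2-fold or more were called. The script was tested on simulated data. Named genes were the rule genes, Cd34, Kit, genes of the antibody targets, in each list the 4 genes with most UMIs and those called over Plac8-low cells, and the 15 highest and lowest over Plac8-low cells (6 for the other groups). Genes named in the cluster, CD11b and CD71 comparisons were chosen after their values were seen. Clusters used scanpy 1.11.5 (2000 variable genes, 16 components, 30 neighbours, Leiden resolution 0.8). Shares used exact Clopper-Pearson intervals. UMIs of 1 cell are not independent samples, so intervals cover counting error only. The study averaged expression over cells of each population, which is tried as an alternative.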

Additional observations from a re-analysis of the deposited data

How the results depend on the processing

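No paired analysis was possible because the series holds 1 library of each kind. Of 110 alternative values of main results, 67 stayed near the first value, 43 moved and 0 reversed, and of 1110 for named genes and other antibodies 892 stayed, 209 moved and 9 reversed. A count stayed when within 1.5 times the first, and a ratio or share when inside the first value's 95% counting interval, which is narrow for antibodies. In order of Plac8-low, granule-gene and S0-medium cells, genes called higher went from 648, 110 and 877 to 404, 48 and 354 on UMIs per cell, 245, 49 and 302 after thinning to 2500 UMIs before the rule, 1138, 349 and 1457 at a filter of 20 UMIs and 2939, 2352 and 3855 at 1 UMI. Genes called lower went from 662, 152 and 935 to 1429, 471 and 4016 on UMIs per cell, and to 3288, 1840 and 3067 at 1 UMI. Thinning gave 57 and 565 lower than in granule-gene and S0-medium cells, and the filter of 20 UMIs gave 328 lower than in granule-gene cells. Over Plac8-low cells, matching on total UMIs left 133 cells in each group and gave 274 higher and 250 lower, a Plac8 limit of 2 gave 428 lower, and a CD71 limit of 40 gave 90 and 115. Over granule-gene cells, removing cells with a lineage antibody sum over 95 gave 38 and 71, and a mitochondrial limit of 5% gave 68 higher. The scale of UMIs per cell kept the same cells and genes and does not adjust for depth. The other settings changed the cells, the UMIs or the genes that entered, and no other cause was tested. Thinning before the rule, at the same UMI limits, gave 152 members, 895 Plac8-low, 93 granule-gene and 578 S0-medium cells. It therefore describes other groups and is no depth check on the 133 members. The CD11b ratio was 3.42 by the centered log ratio and 1.27 at the CD71 limit. CD41 was 1.68 at a Plac8 limit of 5, 1.21 at the CD71 limit, 1.30 without counts over 100 and 1.08 by the centered log ratio. CD44 was 1.16, 1.09, 1.21 and 1.09 in the same order. Without thinning, the share with Gata1, Klf1 or Epor was 31.6% rather than 20.3%, that with Spi1, Irf8 or Flt3 74.4% rather than 48.9%, and that with Cd34 67.7% rather than 45.9%. The share of members in the leading cluster was 36.8% at resolution 1.2, against 60.2%. Mycn was at 0.50 after thinning the cells before the rule, against 3.88, Fli1 at 0.87 at the CD71 limit, and Afp at 0.98 with matched depth, 0.70 without lineage antibody and 0.97 at the CD71 limit. Alb was at 0.65 without lineage antibody, 0.75 at 5% mitochondrial, 0.80 without cells of high hepatocyte share and 0.76 at the CD71 limit. The CD71, CD41 and hepatocyte alternatives were chosen after seeing the data. With 1 library, variation between embryos is unknown, and 133 cells leave genes under about 50 UMIs unmeasured.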
